A study of Mus musculus with 14 samples.

Results

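The glutathione peroxidase family of the mouse (Gpx1 to Gpx8) was followed in normal gut, in the adenomas of a mouse that carries a mutated Apc gene, in the tissue beside them and in a colon carcinoma cell line. Its members were taken by name from the array annotation, which gave 8 probes, 1 for each of the 8 genes, among 55681 probes in all. The family was chosen by measured values, because Gpx5 and Gpx6 separated adjacent tissue from the other groups. For this reason Gpx5 and Gpx6 are described here with no test in any comparison, and every comparison with adjacent tissue is a description for all members.

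RNA from 14 samples was hybridized to one-color Agilent mouse arrays, 1 array per sample. Small intestine (3 arrays) and colon (3) were labelled as whole tissue of C57BL/6J mice. The methods of the study speak of adult wild type animals as the source of intestine but name Apc mutant mice as the source of normal colon, and its design calls the colon donors healthy, so the genotype behind the colon arrays was not settled. Adenoma (3) and adjacent tissue (2) were whole tissue of the APCmin/+ strain, in which adenomas form in the intestine from cells that lose the remaining normal copy of Apc. The CT26 group (3) was a colon carcinoma line of BALB/c origin grown in culture, so it holds no other cell types and differs from the colon samples in strain as well. The supplementary sample list of the study gives a single mouse as the source of every adenoma and adjacent sample and a different mouse for each small intestine sample. The spread among adenoma arrays is therefore that between pieces of 1 animal, and that animal cannot be told apart from its genotype. Nothing states whether the CT26 samples were separate cultures, so their p-values may reflect technical spread alone.

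An array had 46.8% to 58.2% of its probes well above background. Colon replicate 3 stood apart from its group. Across all probes it correlated with the other colon arrays at 0.937 to 0.939 and with the small intestine arrays at 0.960 to 0.966. The median signal of 10 enterocyte genes of the small intestine was 5.19 on that array and -2.71 and -2.55 on the other colon arrays, whereas the median of 8 colonocyte genes was -0.45 there and 5.29 on both of the others. The sample list places 1 colon sample under an Apc mutant mouse, against its label, and which array holds it was not stated. Colon replicate 3 and small intestine replicate 1 also differed from the rest of their groups in sex, as the 4 Y chromosome genes read were well above background on them and Xist, the RNA of the inactive X chromosome, was not, whereas the other arrays of both groups showed the reverse. Calls of the Gpx genes that rest on colon are given with and without colon replicate 3, and their sizes without it in part. For other genes, values without it are given for some of those whose call or size moved with it. Epithelial genes were expressed in every tissue array, and in CT26 3 or 4 of 8 were well above background. Krt18, Krt20 and Cdx2 were so on every CT26 array and Krt8 on 2 of 3, whereas Epcam, Cdh1, Krt19 and Vil1 were so on none.

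Glutathione peroxidases reduce hydrogen peroxide and organic hydroperoxides, most of them at the expense of glutathione. In the mouse, Gpx1, Gpx2, Gpx3 and Gpx4 carry selenocysteine in the active site, while Gpx5, Gpx6, Gpx7 and Gpx8 have cysteine there. Gpx1 is the widespread cytosolic enzyme, Gpx2 is the form of the gastrointestinal epithelium, Gpx3 is secreted into plasma, and Gpx4 reduces lipid hydroperoxides within membranes and protects cells from ferroptosis. Gpx5 is secreted in the epididymis under androgen control, Gpx6 is known from the olfactory mucosa, and Gpx7 and Gpx8 act in the endoplasmic reticulum, where they take part in oxidative protein folding.

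Gpx5 and Gpx6 lie next to each other on mouse chromosome 13. In RefSeq (GRCm38.p6), Gpx5 runs from 21286429 to 21292727 on the minus strand and Gpx6 from 21295465 to 21319625 on the plus strand, so they are transcribed away from each other. The starts of the transcripts in the RefSeq promoter table are 19.5 kb apart. Their upstream windows are shown because these are the members that moved together. Each window holds the 250 bases before that start, on the strand of the gene, chr13:21292687-21292936 for Gpx5 and chr13:21311953-21312202 for Gpx6. Capitals mark the CCAAT box, here found on the opposite strand.
Gpx5: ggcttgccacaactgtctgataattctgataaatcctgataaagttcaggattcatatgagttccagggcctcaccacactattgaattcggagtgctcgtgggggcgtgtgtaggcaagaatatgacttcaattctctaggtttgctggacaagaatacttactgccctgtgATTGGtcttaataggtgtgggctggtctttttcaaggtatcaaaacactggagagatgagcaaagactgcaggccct
Gpx6: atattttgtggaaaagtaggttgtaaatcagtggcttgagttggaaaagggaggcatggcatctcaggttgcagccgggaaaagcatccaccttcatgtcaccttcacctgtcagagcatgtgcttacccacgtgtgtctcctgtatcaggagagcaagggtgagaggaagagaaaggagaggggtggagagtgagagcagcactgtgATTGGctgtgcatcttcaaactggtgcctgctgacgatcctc
The longest run of bases that the windows shared on these strands was ctgtgattgg, 10 bases long, which starts 82 bases before the Gpx5 start and 47 before the Gpx6 start and contains the box. It was found in 64 of 32851 promoter windows (0.195%). Because the run was picked as the longest that these windows share, this percentage does not measure whether the sharing is unusual. The CCAAT box itself (CCAAT, both strands) was present in 33.8% of all windows, and it was added to the search after the sequences had been seen. A search on both strands for a TATA box (TATAAA, in 12.4% of all windows), the core of the antioxidant response element (TGACNNNGC, 10.2%), the site of TCF/LEF factors (CTTTGAT, 3.2%) and an androgen receptor half-site (AGAACA, 16.1%) found none in either window.

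Signals are given as log2 of the background-subtracted intensity minus the 75th percentile of the array, so 0 stands for the 75th percentile. Levels of different genes are not compared, because each probe has its own response. Calls came from limma and required that the log2 fold change reach 1.2 in either direction and that the p-value, adjusted over all probes tested (Benjamini-Hochberg), not exceed 0.01.

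Gpx5 was detected in adjacent tissue and in adenomas and in no other group. Its log2 signal was 3.62 and 4.28 on the adjacent arrays. It was 1.68, 2.13 and 1.33 on the adenoma arrays. On the small intestine, colon and CT26 arrays it lay between -7.37 and -5.64 and was not well above background on any of them. Against small intestine, adjacent tissue was at least 351-fold higher and adenoma at least 74.7-fold higher, where the lowest signal well above background on each array stands for the dim group. Adjacent tissue was 4.70-fold higher than adenoma, and the arrays of these groups did not overlap.

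Gpx6 followed the same order at a smaller distance from background. It reached 1.42 and 2.79 in adjacent tissue and -0.60, -0.62 and -1.76 in adenoma. In small intestine 1 of 3 arrays was well above background, at -4.82, and no colon or CT26 array was. Adjacent tissue was 8.53-fold higher than adenoma, again without overlap. Against colon, where the probe was not well above background on any array, adjacent tissue was at least 97.1-fold higher and adenoma at least 11.4-fold higher, and at least 132-fold and 15.5-fold higher without colon replicate 3. The correlation of Gpx5 with Gpx6 was 0.976 over 14 arrays, and it describes a high cluster of 5 arrays of 1 mouse and a low cluster of the rest. Within each slide of arrays adjacent tissue lay above small intestine by 9.41 and 10.59 on the log2 scale for Gpx5 and by 6.11 and 8.54 for Gpx6. In both slides adenoma was below adjacent tissue, by 2.11 and 2.15 for Gpx5 and by 2.59 and 3.41 for Gpx6.

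**Figure D1:**
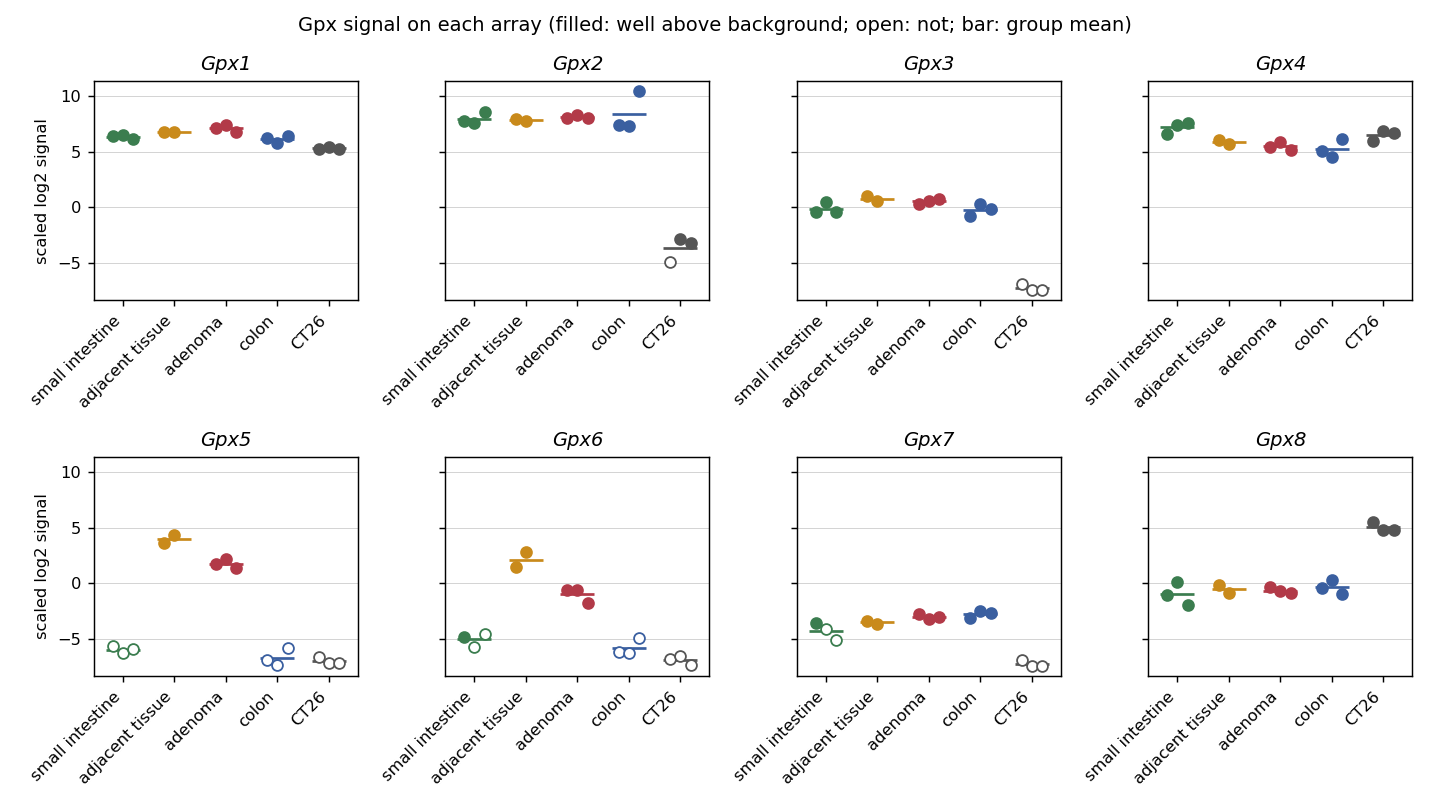
Scaled log2 signal (y axis) of each Gpx gene on the 14 arrays, by group (x axis), with filled points for arrays on which the probe was well above background, open points for those on which it was not, and a bar at the group mean. Gpx5 and Gpx6 are filled on every adjacent and adenoma array, Gpx2, Gpx3 and Gpx7 are lowest in CT26, and Gpx8 is highest there.

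Genes known from the epididymis were read beside Gpx5. Of 12 such genes, 2 or 3 were well above background on any array of any group, and the median of the list was -6.68 to -6.58 in adjacent tissue and -6.54 to -6.15 in small intestine. Lcn5, Lcn8, Crisp1 and Adam7, which are secreted proteins and a surface protein of the epididymis, were not well above background on any array, and Lcn12, Cst8 and Rnase10 were so on some or all arrays of each group. Of 7 genes of the olfactory mucosa, 4 to 6 were well above background in adjacent tissue and 4 or 5 in small intestine, with medians of -3.84 to -3.51 and -3.12 to -2.03. The 5 adjacent and adenoma arrays had none of the 4 Y chromosome genes well above background, and all had Xist. Red blood cell genes had higher signals in the groups with Gpx5. The median of their 5 probes was -3.72 to -3.12 in small intestine, -0.28 to 0.01 in adjacent tissue and 0.54 to 0.79 in adenoma, so adenoma exceeded adjacent tissue here and not for Gpx5. Of the 5, 4 passed the detection limit on every adjacent and adenoma array, and 3 or 4 did on each small intestine and colon array. Across the 11 tissue arrays their median correlated with Gpx5 at 0.945 and with Gpx6 at 0.869, a description over arrays that share mice. The part of blood or of other cell types in the Gpx signals was not tested, and in bulk tissue more cells of a type and more RNA per cell cannot be told apart.

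The genes around Gpx5 and Gpx6 are described for adjacent tissue against small intestine. Gpx5 and Gpx6 were chosen because they separate adjacent tissue. That genes not so chosen differ less was therefore set in advance and is no support for a change limited to Gpx5 and Gpx6. Within 1000000 bases of the Gpx5 probe on either side (mm9, the build of the array files), 88 other probes were placed on chromosome 13, and 42 of them were detected on all arrays of adjacent tissue or of small intestine. Their differences between adjacent tissue and small intestine ran from -2.95 to 2.28 on the log2 scale, with a median of 0.20. Over all probes of the array detected in this way the median was -0.09. Among the neighbors, Zfp184, a zinc finger gene, had the highest, and Trim27, of the tripartite motif family, differed by 0.57. Zscan12, on the other side, differed by 0.52 and 0.54 on its probes. Olfr1367, an olfactory receptor gene between Gpx6 and Zscan12, was not well above background on any array.

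**Figure D2:**
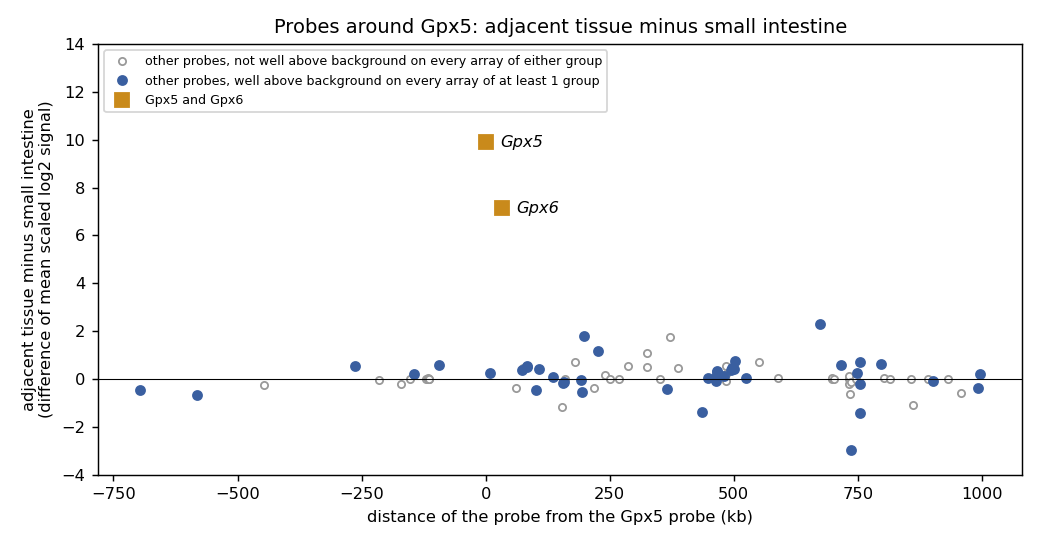
Difference between the mean scaled log2 signals of adjacent tissue and small intestine (y axis) for probes on chromosome 13 against their distance from the Gpx5 probe in kb (x axis), with squares for Gpx5 and Gpx6. The squares stand at 9.91 and 7.15, and the other probes that were well above background reach 2.28 at most. Gpx5 and Gpx6 were chosen because they separate adjacent tissue.

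Among the 32251 probes compared, those of 5 other genes were most like Gpx5 over the 14 arrays. They were Clec1b (Pearson r = 0.992), which encodes a receptor of platelets, Sbk3 (0.981), Sprr2f (0.975), of the small proline-rich proteins, the imprinted RNA H19 (0.967) and Cited1 (0.967), which encodes a transcriptional cofactor. Cited1 was detected on all 14 arrays, whereas Clec1b, Sbk3, Sprr2f and H19 were detected on each adjacent and adenoma array and nowhere else. The 5 correlations describe a high cluster of the adjacent and adenoma arrays, all of a single mouse, and a low cluster of the rest. They use the values by which Gpx5 was chosen and are a description only. Mean signals of Clec1b were -1.57 in adjacent tissue and -2.49 in adenoma, and those of Sprr2f were -0.30 and -0.25, so the excess of adjacent tissue over adenoma seen for Gpx5 was not shared by all of these genes.

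Adenoma was compared with small intestine to see which enzymes differ between the tumor and the healthy gut. Among the 6 members tested, Gpx4 was the single gene called and it was lower in adenoma, while 21.8% of all probes tested were called. Gpx4 had log2 signals of 6.60, 7.41 and 7.59 in small intestine and of 5.44, 5.85 and 5.17 in adenoma. The groups did not overlap, and adenoma was lower by 1.72 on the log2 scale (standard error 0.308, limma adjusted p = 0.004). In adjacent tissue Gpx4 stood at 6.06 and 5.69, also below every small intestine array. The call was lost when small intestine replicate 2 or 3 or any adenoma array was left out, with adjusted p-values of 0.0105 to 0.0181, and the difference then ran from -1.90 to -1.53. It was -1.80 and -1.57 within the slides. Enterocyte genes of the small intestine moved in the same direction, with list medians of 5.89 to 8.81 in small intestine and 4.74 to 5.654 in adenoma, and their part in the difference was not tested.

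Gpx1 had log2 signals of 6.13 to 6.48 in small intestine, 6.75 and 6.77 in adjacent tissue and 6.76 to 7.44 in adenoma. Each adenoma array exceeded each small intestine array, and the difference of 0.77 (standard error 0.221) had an adjusted p of 0.0239 by limma and was not called. Gpx1 is abundant in red blood cells. Of the 5 red blood cell probes, 4 were called higher in adenoma, where 21.8% of all probes tested were called in either direction. Across the 11 tissue arrays the correlation of Gpx1 with the median of the red blood cell probes was 0.881. It was 0.945 for Gpx5, 0.869 for Gpx6, 0.74 for Gpx3 and between -0.205 and 0.203 for the other members. These values are a description over arrays that share mice, and the part of blood in the Gpx1 difference was not tested. Gpx7 was low throughout. It was detected on 1 small intestine array of 3 (-3.57) and on every adenoma array (-3.22 to -2.76), a difference of 1.28 (standard error 0.389, limma adjusted p = 0.0293). The size rests in part on background signal in small intestine and was 0.52 in the authors' table and 0.32 after normexp correction. Gpx2 (0.17, limma adjusted p = 0.615), Gpx3 (0.66, 0.0848) and Gpx8 (0.31, 0.611) were not called, and their arrays overlapped between the groups. For Gpx8 the slides disagreed, with differences of 0.88 and -0.82.

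Colon was compared with small intestine to separate the normal segments. None of the 6 members was called by limma, and 2 of them had an unadjusted p under 0.05, while 0.00733% of all probes tested were called. Gpx4 was 5.04, 4.54 and 6.15 in colon, below every small intestine array, and differed by -1.96 (standard error 0.481, limma adjusted p = 0.0983). Its highest colon value was that of replicate 3. Without that array the difference was -2.41 and Gpx4 was called (limma adjusted p = 0.00876), while 6.9% of all probes were. Gpx2 was 7.39 and 7.29 in colon and 10.47 on colon replicate 3, the highest value among the 14 arrays. Its log2 fold change was therefore 0.41 with this array and -0.63 without it, and neither was called. Gpx7 was above every small intestine array in colon (-3.13, -2.54 and -2.69), by 1.5 on the log2 scale (limma adjusted p = 0.122), or by 0.58 in the authors' table and after normexp correction. Gpx1, Gpx3 and Gpx8 had overlapping arrays.

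CT26 cells were compared with colon, and here 4 of the 6 members were called, against 36.5% of all probes tested. Gpx8 was higher in CT26, and Gpx2, Gpx3 and Gpx7 were lower. Gpx2, Gpx3 and Gpx7 entered this test through colon alone, the group where they were high, so their calls are no support for a difference of the family. Where detection on all arrays of each group was required, 3 members were tested and 1, Gpx8, was called. The same 4 genes were called without colon replicate 3, and Gpx4 was added, against 39.1% of all probes. The log2 signals of Gpx2 in CT26 were -4.87, -2.80 and -3.15, the first not well above background, against 7.29 to 10.47 in colon. The means differed 4062-fold, and 3814-fold when the dimmest array was set at its detection level (log2 fold change -11.99, limma adjusted p = 4.0e-05). The size rests in part on colon replicate 3, without which the log2 fold change was -10.94. Gpx3 was -0.76, 0.29 and -0.10 in colon and not well above background on any CT26 array, so colon was at least 27.7-fold higher, and 26.8-fold without colon replicate 3 (limma adjusted p = 5.24e-06 over all arrays). Gpx7 was not well above background in CT26 either and was at least 4.6-fold higher in colon, and 4.44-fold without colon replicate 3 (limma adjusted p = 2.6e-05 over all arrays). Its log2 fold change was -1.19 in the authors' table, just under the size required, with an adjusted p of 0.00191.

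Gpx8 moved the other way. It was 5.48, 4.82 and 4.77 in CT26 and -0.42, 0.32 and -0.95 in colon, a 41.3-fold difference without overlap (5.37 on the log2 scale, standard error 0.405, limma adjusted p = 3.59e-05), and 33.5-fold without colon replicate 3. In each of the tissue groups its mean lay between -0.98 and -0.35, and neighbors in that order did not differ beyond their spread. Gpx1 was 5.25 to 5.47 in CT26, below every colon array (-0.83, limma adjusted p = 0.0423, and -0.71 without colon replicate 3), and was called at -1.34 in the authors' table and at -1.33 after quantile normalization. Gpx4 was 5.99, 6.87 and 6.69, with an array of each group overlapping (1.28, limma adjusted p = 0.0529), and without colon replicate 3 it was called at 1.73 (adjusted p = 0.00611). The median over all probes tested was 0.37 higher in CT26, or 0.12 after normexp correction, and relative to the former Gpx1 stood at -1.20 and Gpx4 at 0.90.

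**Figure D3:**
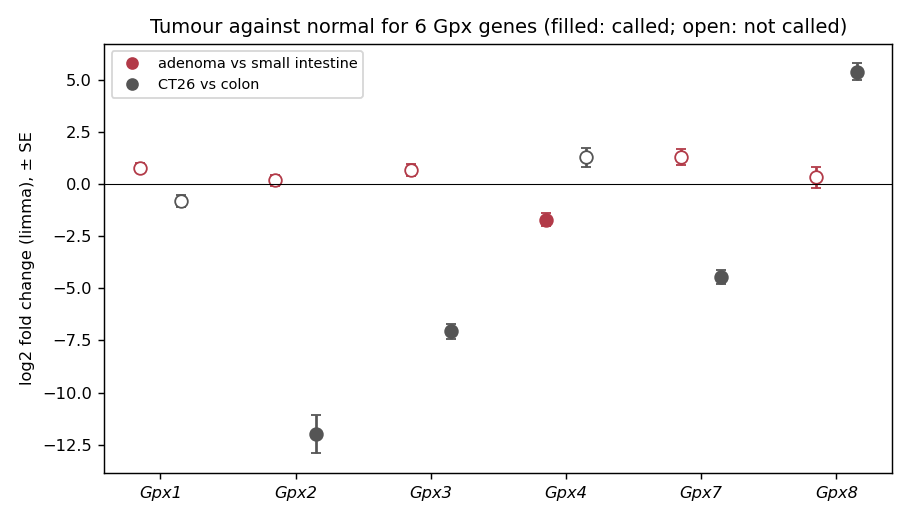
Log2 fold change from limma with its standard error (y axis) of adenoma against small intestine and of CT26 against colon for the 6 members tested (x axis), filled where called. Gpx4 is the single filled point for adenoma, while Gpx2, Gpx3, Gpx7 and Gpx8 are filled for CT26, where Gpx3 and Gpx7 were not well above background on any CT26 array and their drawn sizes rest on background signal.

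The upstream windows of Gpx2 and Gpx8, the members that lay farthest apart in CT26, are shown for comparison. They are the 250 bases before the start on chr12:76795555-76795804 (minus strand, Gpx2) and chr13:113046389-113046638 (minus strand, Gpx8) of GRCm38.p6, from RefSeq. Capitals mark the CCAAT box, which the Gpx8 window lacked.
Gpx2: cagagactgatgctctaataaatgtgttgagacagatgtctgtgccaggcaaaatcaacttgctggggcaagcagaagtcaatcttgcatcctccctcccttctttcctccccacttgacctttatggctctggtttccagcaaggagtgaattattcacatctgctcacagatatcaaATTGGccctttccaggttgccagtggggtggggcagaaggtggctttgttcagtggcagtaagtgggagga
Gpx8: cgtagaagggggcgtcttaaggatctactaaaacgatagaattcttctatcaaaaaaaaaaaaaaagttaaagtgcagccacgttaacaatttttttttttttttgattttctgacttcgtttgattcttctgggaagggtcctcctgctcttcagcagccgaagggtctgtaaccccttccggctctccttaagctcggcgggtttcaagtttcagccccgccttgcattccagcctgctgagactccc
The Gpx2 window held 0 CG dinucleotides and 49.2% G and C, and that of Gpx8 held 10 and 44.8%. Over all windows the medians were 6 and 52.4%. Neither held any of the other motifs searched.

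The genes most like Gpx2 over the 14 arrays were Tmem51 (r = 0.993), the epithelial keratin Krt8 (0.993), G630025P09Rik (0.993), Aldh5a1 (0.992), an enzyme of GABA breakdown, and Lsr (0.991), a protein of epithelial junctions. All of them were low in CT26, which sets these values, and over the 11 tissue arrays alone their correlations with Gpx2 were 0.615 to 0.847. The epithelial list behaved likewise. Its median was 6.70 to 8.24 on tissue arrays and -5.73 to -5.14 in CT26, and its correlation with Gpx2 was 0.989 over 14 arrays and 0.44 over 11. Fibroblast genes, which reached -0.78 to 1.99 in CT26 and 0.56 to 3.87 in tissue, differed less. The part of cell composition in these differences was not tested.

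**Figure D4:**
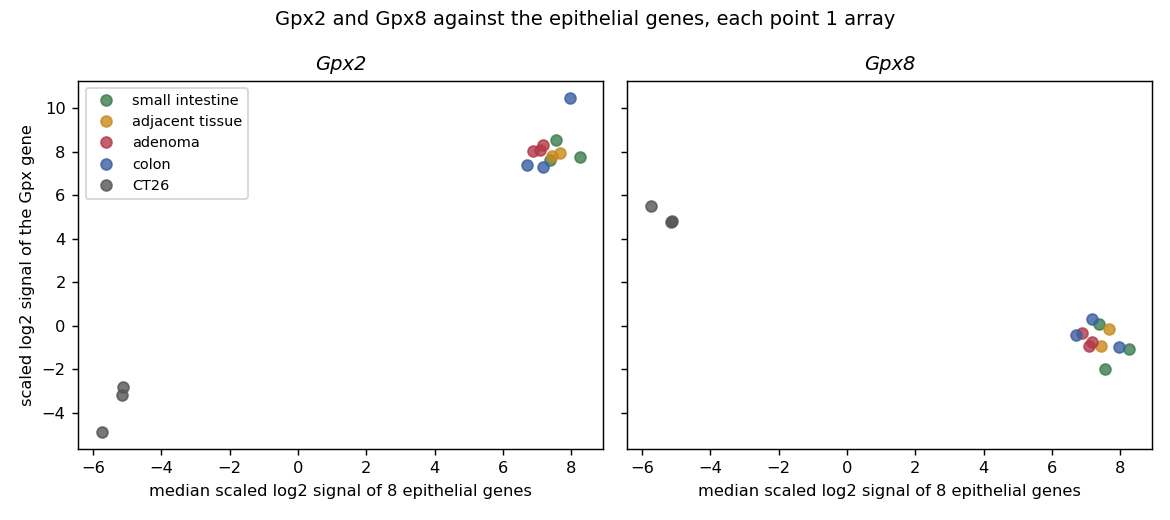
Scaled log2 signal of Gpx2 and of Gpx8 (y axis) against the median of 8 epithelial genes (x axis), 1 point per array, colored by group. The CT26 arrays form a cluster of their own, below -5 on the x axis, with Gpx2 low and Gpx8 high, and the tissue arrays fall together above 6.

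Adenoma was also compared with colon. None of the 6 members was called by limma, with 2 at an unadjusted p under 0.05, while 3.39% of all probes tested were called. Gpx1 was higher in adenoma on every array, by 0.95 (standard error 0.262, limma adjusted p = 0.0675), and by 1.07 without colon replicate 3. Without colon replicate 3 none was called either, against 11.2% of all probes. Gpx2 was 0.80 higher in adenoma without that array and 0.24 lower with it, 0.09 higher in the authors' table and 0.14 higher after quantile normalization.

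The difference between the tumor and its normal tissue was then compared between the 2 settings, as (adenoma minus small intestine) minus (CT26 minus colon). All 6 members were called, against 30.2% of all probes tested. Gpx2, Gpx3 and Gpx7 entered this test only through groups other than CT26, where they were higher. Their calls are therefore no support for a difference of the family. Gpx1, Gpx4 and Gpx8 were also called where detection on all arrays of each group was required. The values were 12.16 for Gpx2, 7.73 for Gpx3 and 5.74 for Gpx7, which were lower in CT26 and not called in adenoma, and -5.06 for Gpx8, which was higher in CT26 and not called in adenoma. Gpx4 was lower in adenoma and higher on average in CT26, a difference of -3.0 (limma adjusted p = 0.00208). Gpx1 had the smallest, 1.6 (limma adjusted p = 0.00298), and it lost its call without adenoma replicate 2 (1.43, adjusted p = 0.0103) and with no filter on dim probes (limma adjusted p = 0.0103). Without colon replicate 3 all 6 remained called, against 35.3% of all probes.

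The genes that work with the glutathione peroxidases were read as 7 lists, beside the shares of all probes called, 21.8% for adenoma against small intestine and 36.5% for CT26 against colon. In the list of glutathione synthesis and recycling, adenoma against small intestine gave 0 genes higher and 4 lower of 11 tested (21.8% of all probes were called), with a list median of -0.44 against -0.15 over all probes. Ggt1, which breaks down extracellular glutathione, was 7.09-fold lower, the glutaredoxin Glrx 3.97-fold lower and Gclm, the modifier subunit of the enzyme that starts glutathione synthesis, 3.63-fold lower. In CT26 against colon, 3 were higher and 2 lower of 12, where 36.5% of all probes were called. Chac1, which degrades glutathione in the cell, was 75.2-fold higher, and the cystine transporter Slc7a11 was at least 11.6-fold higher, since no colon array was well above background for it. Its partner Slc3a2 was 7.07-fold higher. Idh1, a source of NADPH, was 11.1-fold lower and Glrx was 8.35-fold lower. Without colon replicate 3, Chac1 was 119-fold and Slc3a2 11.7-fold higher, Glrx was 5.05-fold lower, and Idh1 was no longer called (limma adjusted p = 0.021).

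Among 16 other enzymes that handle peroxide or superoxide, 3 were higher and 2 lower in adenoma, beside 21.8% called over all probes. The peroxiredoxin Prdx4 of the endoplasmic reticulum was 4.83-fold higher, the extracellular superoxide dismutase Sod3 4.53-fold higher and the thioredoxin reductase Txnrd3 2.38-fold higher. Catalase (Cat) was 6.59-fold lower and sulfiredoxin (Srxn1) 4.94-fold lower. In CT26, 1 was higher and 2 lower, beside 36.5% over all probes. Prdx4 was 4.09-fold higher, and Cat was 3.70-fold lower. Sod3 had a log2 fold change of -3.42 there, with 2 of 3 CT26 arrays well above background, and was not called without colon replicate 3 (limma adjusted p = 0.0128), where Prdx6, another peroxiredoxin, was called lower instead. The list medians were -0.59 and -0.11, against -0.15 and 0.37 over all probes.

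Of 8 genes that supply selenium or build selenocysteine into proteins, Selenop, the plasma carrier of selenium, was the single gene called in either comparison. Over all probes 21.8% were called in adenoma and 36.5% in CT26. Selenop was 9.56-fold lower in adenoma, and in CT26 its log2 fold change was -7.91, or -7.17 without colon replicate 3. Of 13 other selenoproteins, 3 were higher and 1 lower in adenoma, beside 21.8% called over all probes. The deiodinase Dio2 was at least 25.2-fold higher, with no small intestine array well above background, and Dio1 was 11.1-fold lower. Selenoh was 4.39-fold higher and Selenon 2.67-fold higher. In CT26, 3 were higher and 3 lower, beside 36.5% over all probes. Selenon, Selenoh and Selenof were 4.32-, 4.28- and 3.74-fold higher. Dio1 was at least 152-fold lower, Selenom 4.42-fold lower and Msrb1 3.24-fold lower. Without colon replicate 3 the bound for Dio1 was 241-fold, Msrb1 was not called (limma adjusted p = 0.0139) and Selenot was called higher.

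The NADPH oxidases and their partners, which make superoxide or peroxide, were largely lower in CT26, where 8 of 10 tested were called lower than in colon and 0 higher, beside 36.5% of all probes, with a median of -5.02. The same 8 were called without colon replicate 3, with a median of -4.29. Duoxa2, which matures the dual oxidase, was at least 164-fold lower (82.4-fold without colon replicate 3), and Noxo1, an organizer subunit of Nox1, was 133-fold lower. In adenoma 0 of 10 were called, beside 21.8% of all probes, and 7 had an unadjusted p under 0.05 by limma. Of 7 genes of lipid peroxidation tested in adenoma, 3 were higher and 1 lower, beside 21.8% of all probes. The lipoxygenase Alox12 was at least 10.6-fold higher, Acsl4, which loads polyunsaturated fatty acids, 9.76-fold higher, and Alox15 at least 1.44-fold higher, whereas Lpcat3 was 3.20-fold lower. In CT26, Acsl4 was 6.51-fold and Aifm2, a suppressor of ferroptosis, 2.95-fold higher, and Alox5 was at least 11.4-fold lower (21.1-fold without colon replicate 3), which made 3 called of 5 tested beside 36.5% of all probes. Of 8 further targets of Nrf2, the regulator of antioxidant genes, Hmox1 was 2.92-fold higher in adenoma and the single gene called, beside 21.8% of all probes. In CT26, Hmox1 was 20.9-fold and Ephx1 8.63-fold higher (5.39-fold without colon replicate 3), and Nqo1 was 10.6-fold lower. Abcc3 was at least 684-fold lower, with no CT26 array well above background. This made 4 of 8 called, beside 36.5% of all probes.

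In colon against small intestine no gene of the 7 lists was called by limma, where 0.00733% of all probes tested were called. With so few calls over all probes, the lack of a call is no result about these genes. Between 0 and 7 of a list had an unadjusted p under 0.05 by limma. Without colon replicate 3, 10 of 71 were called, against 6.9% of all probes. Ggt1, Slc3a2, Glrx, Prdx1, Srxn1, Selenop and Lpcat3 were then lower in colon, and Prdx6, Acsl4 and Ephx1 higher. In adenoma against colon, Dio2 (4.55), Alox12 (3.43) and Selenoh (1.58) were called higher in adenoma, as log2 fold changes, beside 3.39% of all probes. Without colon replicate 3 they were called as well, and 12 genes of the lists were called in all, against 11.2% of all probes.

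**Figure D5:**
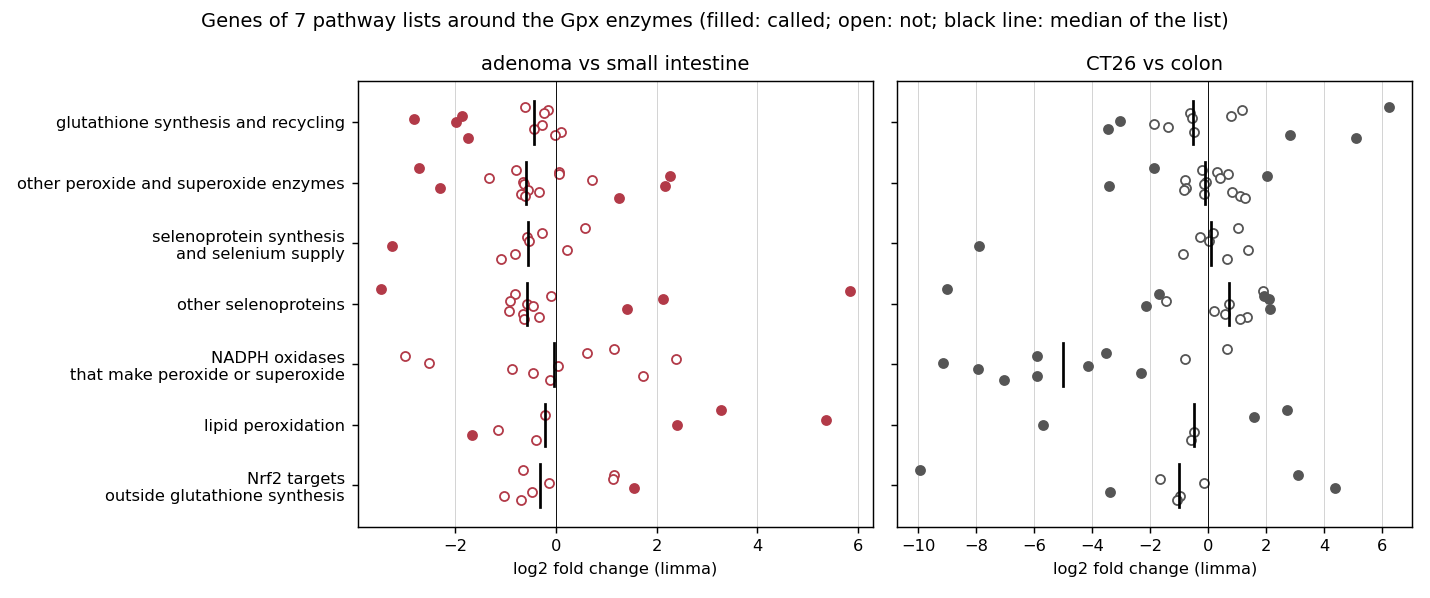
Log2 fold changes (x axis) of adenoma against small intestine and of CT26 against colon for the genes of 7 pathway lists (y axis), 1 point per gene, filled where called, with a black line at the median of the list. The NADPH oxidase list stands at a median of -5.02 in CT26, with 8 of 10 genes called lower, and has no filled point in adenoma.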

How the data were processed

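For each array the authors deposited scanner values from Agilent Feature Extraction 10.7.3.1, of which the background-subtracted intensity was used here, together with a table of log2 values that they normalized between arrays in a way not given in the sources used here. Control and outlier-flagged spots were removed, values were put on the log2 scale relative to the 75th percentile of their array, and repeated spots were averaged. Hbb-b1 and Hbb-bt share a probe, which was counted once. Each Gpx gene had 1 spot, and none was saturated. Groups came from the sample labels. Each pair of groups was fitted on its own arrays with limma 3.58.1 in R 4.3.3. A probe entered the fit if at least 1 of the groups had it above background on all of its arrays. The fits were tested on simulated data. With 200 probes changed by 3 on the log2 scale at the spread of the data, 78.5% were recovered for adenoma against small intestine. The share was 51% for colon against small intestine, 35% for CT26 against colon and 54.5% for adenoma against colon. A gene that was not called may therefore still differ. Genes named were the members, the 5 most correlated with Gpx5 and with Gpx2, neighbors of Gpx5, and up to 3 called genes per list, comparison and direction with the largest folds, some of which are not reported here. The members and lists were chosen with earlier results of these data known. Alternatives were the authors' table, normexp correction, quantile normalization, other filters, fits and call rules, slide or replicate number as a block, and each array left out. The values of the lists without colon replicate 3 were added after the data had been seen. Columns with the authors' own comparisons (fold changes and p-values) were not used.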

Additional observations from a re-analysis of the deposited data

Results flagged for a closer look

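The difference between tumor and normal tissue differed between adenoma (against small intestine) and CT26 (against colon) for each of the 6 members tested, by limma's test of the difference itself, where 30.2% of all probes did. The values, adenoma minus small intestine less CT26 minus colon on the log2 scale, were 12.16 for Gpx2 (adjusted p = 6.46e-06), 7.73 for Gpx3 (2.86e-07), 5.74 for Gpx7 (6.7e-06), 1.6 for Gpx1 (0.00298), -3.0 for Gpx4 (0.00208) and -5.06 for Gpx8 (0.000142). Gpx2, Gpx3 and Gpx7 entered this test only through groups other than CT26, so their calls are no support for a difference of the family. Gpx3 and Gpx7 were not well above background in CT26, so the size of their values rests on background signal. Tissue and a cell line, and the mouse strains, cannot be told apart in this comparison.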

How the results depend on the processing

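The number of members called between adenoma and small intestine, 1 of 6, was 0 with no filter on dim probes, 3 at an adjusted p of 0.05 with no fold minimum, and 0 to 2 as each array was left out, the 2 being without small intestine replicate 1, where Gpx7 was added with no small intestine array above background. Between CT26 and colon it was 4, 1 of the 3 that could be tested when detection on all arrays of each group was required, and 4 to 5 with each array left out. Between colon and small intestine it was 0, and 0 to 1 with each array left out, the 1 being without colon replicate 3. Between adenoma and colon it was 0 in every setting run. For the difference between the settings it was 6, 3 of 3 tested under the stricter filter, 5 with no filter on dim probes, and 5 to 6 with each array left out. With the slide as a block each count was as given. The replicate numbers of the labels did not pair the arrays in the comparisons tested, where same-numbered arrays deviated together with correlations of -0.322 to 0.238. Adjacent tissue was not part of this check. With the replicate block the counts were 1, 0, 4, 0 and 6. Their order is adenoma against small intestine, colon against small intestine, CT26 against colon, adenoma against colon and the difference. Signs reversed for differences that were not called. In adenoma against small intestine these were Gpx2 without small intestine replicate 2 (-0.003, range -0.003 to 0.46 over the arrays left out) and Gpx8 without small intestine replicate 3 (-0.18, range -0.18 to 0.846). In colon against small intestine they were Gpx1 in the authors' table (0.13) and after quantile normalization (0.099), Gpx2 without colon replicate 3 (-0.631, range -0.631 to 0.959), and Gpx3 without small intestine replicate 2 (0.222) or colon replicate 1 (0.204), in a range of -0.323 to 0.222. In adenoma against colon they were Gpx2 in the authors' table (0.093), after quantile normalization (0.14), with the slide block (0.073) and without colon replicate 3 (0.801, range -0.788 to 0.801), and Gpx4 (-0.108, range -0.108 to 0.694) and Gpx8 (0.018, range -0.618 to 0.018) without colon replicate 2. Over all probes, the calls between adenoma and colon were 990, but 103 with the slide block, 58 with the replicate block, 296 with no filter, 1899 with all groups in 1 fit and 5 to 3498 with each array left out. Between colon and small intestine they were 2, but 1038 with all groups in 1 fit and 2107 without colon replicate 3. Other than through the arrays left out, the cause was not tested. Signal over background limits Gpx5, Gpx6 and Gpx7 outside the groups where they were detected, and Gpx3 in CT26.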
